A study of Homo sapiens with 6 samples.

Results

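The DNAJ genes of classes A, B and C encode HSP40 cochaperones, which hand client proteins to HSP70 chaperones. They were described here in CAL-27 cells, a human squamous carcinoma line of the tongue, with and without elesclomol-copper (ES-Cu). Members were all rows of the deposited expression table whose gene symbol begins with DNAJ, a class letter A, B or C and a digit. There were 45 of them among 16809 genes, 4 of class A, 12 of class B and 29 of class C. The 3 control libraries came from untreated cells, labelled normal control. The 3 ES-Cu libraries came from cells given elesclomol, a copper ionophore, with copper at a 1:1 ratio for 24 h, and no dose was given in the sources used here. Both groups are the same line, and nothing in the labels says whether the libraries are separate cultures, so p-values below cover only library-to-library spread, possibly of technical origin.

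Every DNAJ protein carries a J domain, the part that makes HSP70 hydrolyse ATP and close on its client. Class A proteins also have a glycine- and phenylalanine-rich stretch and a zinc finger-like region, class B proteins lack the zinc finger-like region, and class C proteins share only the J domain. Many class A and B proteins bind unfolded clients themselves, whereas class C proteins mostly bring HSP70 to one site or task, such as a membrane, the ribosome or the spliceosome. The heat shock factor HSF1 activates DNAJB1 and other chaperone genes when unfolded protein builds up in the cytosol, and the unfolded protein response does so for DNAJ genes of the endoplasmic reticulum.

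Expression was given as TPM (transcripts per library total, adjusted for length), so levels can be compared between genes. Sequencing depth is unknown because TPM keeps no read totals. In bulk RNA, fewer cells of a kind and less RNA per cell cannot be told apart. All 8 squamous epithelial markers fixed for the check were at a mean of at least 1 TPM, with a summed level of 2521 to 2643 TPM in control and 2927 to 2977 TPM in ES-Cu. That sum was higher mainly through SFN (control mean 640 TPM, ES-Cu mean 1233 TPM), whereas 5 of the 8 had a lower mean in ES-Cu, among them TP63 (86.8 and 24.5 TPM) and CDH1 (173 and 71.3 TPM). Of 5 leukocyte markers 3 were listed, and their sum (49.1 to 66.1 TPM over all libraries) was nearly all CD68, with PTPRC at a mean of 0.0267 TPM in control against 0.0133 TPM in ES-Cu. The 3 endothelial markers summed to 7.14 to 7.47 TPM in control and 1.28 to 1.87 TPM in ES-Cu, mostly CDH5, and the 4 fibroblast markers to 11.1 to 11.5 and 4.46 to 5.14 TPM. PECAM1 and COL3A1 were near 0. The part of such cells in the results was not tested.

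Since every library sums to the same total, a rise of abundant genes lowers the TPM of the rest. How much of the shift of the median gene comes from this was not tested. The log2 fold change of the median gene was -0.50 as deposited, 0.0037 after median-of-ratios scaling and -0.074 after quantile normalization. A member is therefore said to rise or fall only if the limma test called it in the same direction, at an adjusted p under 0.05, in all 3 scalings. Fold changes are of TPM + 1 on the deposited scale unless another is named, and those of low genes are understated.

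The promoters of DNAJB1, DNAJA4, DNAJA1 and DNAJB6 are shown first. These members rose, as described below, and their promoters match letters of the heat shock element, the DNA pattern known for HSF1. That of DNAJB4 is shown with them as a close relative of DNAJB1 that has a match too but whose groups overlapped. Whether the matches have a part in any change was not tested. Capitals mark a pair of units of the pattern, GAANNTTC or TTCNNGAA, where N is any base. Each pattern reads the same on both strands, and neighbouring pairs may share a unit. The sequences are 100-base stretches of RefSeq promoter windows on build GRCh38.p14, read 5′ to 3′ along the gene and lying upstream of a RefSeq start site, except that of DNAJA1, which runs 20 bases into the transcript.
DNAJB1, chr19:14518406-14518505, minus strand: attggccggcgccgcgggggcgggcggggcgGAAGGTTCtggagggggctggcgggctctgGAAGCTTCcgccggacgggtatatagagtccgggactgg
DNAJA4, chr15:78264444-78264543, plus strand: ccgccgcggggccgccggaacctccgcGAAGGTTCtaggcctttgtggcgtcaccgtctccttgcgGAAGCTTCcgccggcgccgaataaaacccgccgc
DNAJA1, chr9:33025193-33025292, plus strand: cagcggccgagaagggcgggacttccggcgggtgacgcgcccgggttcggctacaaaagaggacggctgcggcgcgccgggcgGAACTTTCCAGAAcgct
DNAJB6, chr7:157336829-157336928, plus strand: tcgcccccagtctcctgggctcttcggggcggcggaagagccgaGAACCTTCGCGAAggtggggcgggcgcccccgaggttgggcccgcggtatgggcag
DNAJB4, chr1:78004795-78004894, plus strand: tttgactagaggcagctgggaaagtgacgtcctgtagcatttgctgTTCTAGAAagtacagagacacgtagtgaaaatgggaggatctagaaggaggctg

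The DNAJB1 and DNAJA4 stretches each held 2 separate pairs, which began at positions -77 and -47 from the start site in DNAJB1 and at -91 and -52 in DNAJA4. Both genes have 3 windows, and the window with the most pairs was the one shown. For DNAJA4 the bases checked after that start site were not found in its GENCODE release 29 transcripts. In DNAJB6 a run of 3 units began at position -131, and in DNAJA1 such a run began at base 4 of the transcript. Outside the stretches shown, DNAJA1 had another pair at position -198, and DNAJB1 had one at base 2 from another of its start sites. The search took windows of 250 bases before to 50 bases after each start site and found 41 of the 45 members, with 53 windows. DNAJC1, DNAJC5B, DNAJC22 and DNAJC24 were not matched. A pair was present in 8 of these 41 members, against 14.4% of 13435 genes of the table with a window and 11% of all 19351 windows. It was found in 4 of the 12 members that rose, namely the first 4 promoters above, in 0 of 4 matched members that fell, and in 3 of 20 tested members that did neither (DNAJB4, DNAJC6 and DNAJC15). The other member with a pair, DNAJB7, was too low to test. DNAJB9, with a larger log2 fold change than DNAJB6, had no pair in its window. A run of 3 units was in DNAJA1 and DNAJB6 and in 0.514% of all genes with a window. The ER stress element in its strict form, CCAAT followed after 9 bases by CCACG on either strand, was in 0 of 41 members and in 0.149% of genes. A match of letters is a description and not a binding site, and a window without a match says only that the letters are not in it.

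On the deposited scale the DNAJ genes as a group took a larger share of the transcripts in ES-Cu. The gain in summed TPM lay in a few members. The summed level of all 45 members was 2146, 2168 and 2144 TPM in the control libraries and 7158, 6909.8 and 6965 TPM in the ES-Cu libraries. DNAJB1 alone held 7.73% ± 0.354 of that sum in control and 50.9% ± 0.401 in ES-Cu (mean ± SD, n = 3 per group, as throughout). DNAJB1, DNAJA1, DNAJA4 and DNAJB6 together held 29.5% ± 0.345 and 78.4% ± 0.185. Without those 4 genes the other 41 summed to 1517 ± 2.89 TPM in control against 1514 ± 16.7 TPM in ES-Cu. Those 4 are members that rose, so the level remainder is a description and not a test. It holds for deposited TPM, where the median gene was at -0.50. After median-of-ratios scaling and after quantile normalization alike, 20 of the 39 tested members were called higher. Many more genes of the whole table were too, 4532 of 11927 after median-of-ratios scaling against 1628 as deposited. The count over all genes after quantile normalization is not given here. Some members changed rank by level as well, while DNAJA1 stayed at rank 2 and DNAJB6 at rank 4. DNAJC8 was the highest member in control and DNAJB1 the fifth, whereas DNAJB1 led in ES-Cu and DNAJA4 moved from rank 20 to rank 3.

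**Figure D1:**
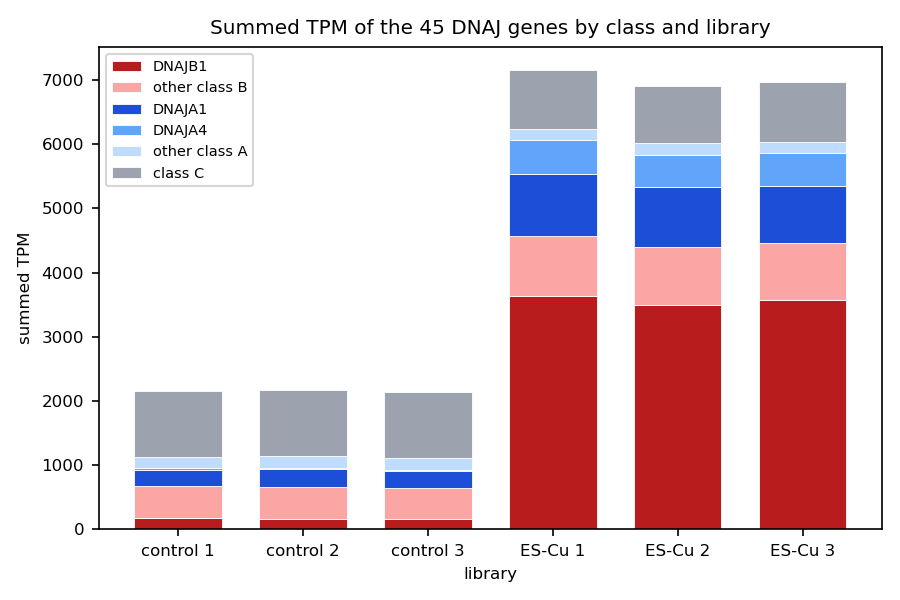
Summed TPM (vertical axis) of the 45 DNAJ genes in each of the 6 libraries (horizontal axis), split by colour into DNAJB1, DNAJA1, DNAJA4, the other members of classes A and B, and class C. The control bars stand at 2144 to 2168 TPM and the ES-Cu bars at 6909.8 to 7158 TPM, with the class C block slightly smaller in ES-Cu.

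Of the 39 members with a mean of at least 1 TPM, 12 rose, 5 fell and 22 did neither. Over all 11927 tested genes 13.5% rose and 31.2% fell by the same rule. On the deposited scale alone 12 members were called higher and 18 lower, against 13.6% and 70.0% of tested genes. In shares, 30.8% of the tested members were called higher and 46.2% lower on that scale. The median member had a log2 fold change of -0.21, against -0.50 for the median gene, and 27 of 39 members lay above the median gene. The sign of the members' median rests on the scaling, since it was 0.33 after median-of-ratios scaling and 0.29 after quantile normalization. The groups did not overlap for 30 of the 39, no more often than for all tested genes, of which 84.3% had groups that did not overlap. These are counts over members chosen by name, with no test of the family as a whole.

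The 3 classes differed in their counts. In class A 3 of 4 members rose and 0 fell, in class B 5 of 9 rose and 0 fell, and in class C 4 of 26 rose and 5 fell. All 5 members that fell were thus of class C, yet this class fell less often than all tested genes, at 19.2% against 31.2%. The shares that rose were 75.0%, 55.6% and 15.4% in classes A, B and C, against 13.5% of all tested genes. The median log2 fold change was 0.97 in class A, 0.36 in class B and -0.40 in class C, where the median gene was at -0.50. After median-of-ratios scaling the class medians were 1.53, 0.87 and 0.082, and after quantile normalization 1.13, 0.70 and 0.10. The sign of the class C median thus rests on the scaling, while the order of the classes was the same in the 3 scalings. The summed level of class A was 474 ± 14.2 TPM in control against 1614 ± 48.4 TPM in ES-Cu. Class B went from 650.5 ± 15.3 to 4478 ± 85.8 TPM, and without DNAJB1 from 484 ± 11.3 to 909 ± 27.8 TPM. Class C stood at 1028 ± 4.51 and 919 ± 20.3 TPM. The difference between classes was not tested, since genes are not replicates of a treatment.

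**Figure D2:**
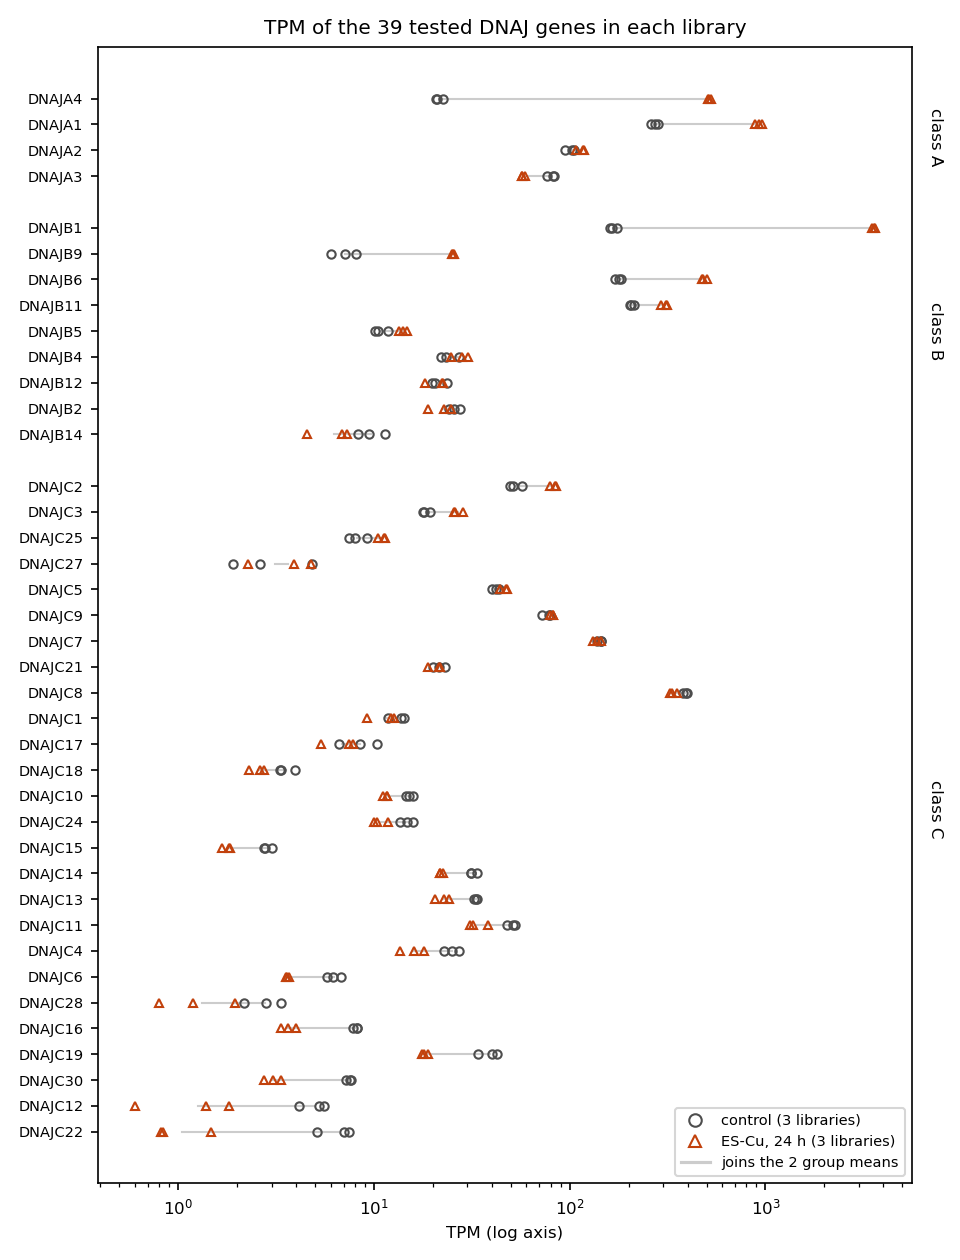
TPM on a log axis (horizontal) of the 39 tested DNAJ genes (vertical), with 3 control libraries as circles, 3 ES-Cu libraries as triangles and a grey line joining the group means, grouped by class and ordered by fold change. The ES-Cu points of DNAJA4, DNAJA1, DNAJB1, DNAJB9 and DNAJB6 lie far to the right of the control points, and those of DNAJC22, DNAJC12 and DNAJC19 to the left.

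Among cytosolic and nuclear members, which work with the cytosolic HSP70 proteins, 6 of 9 tested rose and 0 fell. Over all tested genes 13.5% rose and 31.2% fell. DNAJB1, the main heat-inducible HSP40, was at 174, 161 and 164 TPM in control and at 3633, 3497 and 3577 TPM in ES-Cu. The lowest ES-Cu library was thus far above the highest control library. This was a 21.4-fold ratio of means and a log2 fold change of 4.42 (SE 0.039, adjusted p = 1.70e-14, limma), or 4.97 after median-of-ratios scaling. DNAJA4, a cytosolic class A protein, was at 20.9, 22.6 and 20.9 TPM in control and at 529, 510.0 and 515 TPM in ES-Cu. These groups too were far apart. The log2 fold change of 4.53 (SE 0.046, adjusted p = 3.90e-14, limma), a ratio of 24.2, was the largest of the tested members on the deposited scale, just above that of DNAJB1.

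DNAJA1 and DNAJB6 were already abundant in control and rose less steeply. DNAJA1, a farnesylated class A partner of HSC70, was at 259.9, 282 and 272 TPM in control and at 959.5, 926 and 885 TPM in ES-Cu. The groups were well apart, with a ratio of 3.41 and a log2 fold change of 1.76 (SE 0.044, adjusted p = 8.56e-11, limma). DNAJB6, which holds back the aggregation of polyglutamine proteins, was at 178, 183 and 171 TPM in control and at 505, 479.7 and 474 TPM in ES-Cu. Again no library of one group reached the other, with a ratio of 2.75 and a log2 fold change of 1.45 (SE 0.041, adjusted p = 3.04e-10, limma).

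DNAJA2, DNAJB5 and DNAJB4 had smaller log2 fold changes than DNAJB1, DNAJA4, DNAJA1 and DNAJB6 in each of the 3 scalings. DNAJA2, the other main cytosolic class A protein, was at 94.3, 102 and 105 TPM in control and at 118, 117 and 108 TPM in ES-Cu. Its groups did not overlap, by a narrow gap, and its log2 fold change of 0.18 was called (adjusted p = 0.00758, limma), with 0.74 after median-of-ratios scaling and 0.43 after quantile normalization. DNAJB5, a class B relative of DNAJB1, rose from 10.1, 11.8 and 10.5 TPM to 14.05, 13.4 and 14.8 TPM (0.36, adjusted p = 0.00169, limma), or by 0.87 and 0.88 in those scalings. DNAJB4, another such relative and the owner of the fifth promoter above, was at 27.1, 23.2 and 21.9 TPM in control and at 28.0, 30.1 and 24.7 TPM in ES-Cu, with overlapping groups. Its log2 fold change of 0.19 missed the threshold on the deposited scale (adjusted p = 0.0691, limma). It was called higher after median-of-ratios scaling (0.73) and quantile normalization (0.60), and also on the deposited scale without control replicate 1 (0.28, adjusted p = 0.0140, limma) or ES-Cu replicate 3 (0.27, adjusted p = 0.0190, limma).

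DNAJB2, which has ubiquitin-binding motifs and is best known from neurons, was at 25.5, 27.55 and 24.0 TPM in control and at 24.9, 18.9 and 22.7 TPM in ES-Cu. One ES-Cu library lay within the control range, and the log2 fold change of -0.21 missed the threshold (adjusted p = 0.0550, limma), passed it without control replicate 3 (-0.26) or ES-Cu replicate 1 (-0.29), and turned to 0.33 after median-of-ratios scaling. DNAJC7, which links HSP70 and HSP90, was at 138, 145 and 145 TPM in control and at 138, 132 and 145 TPM in ES-Cu. One ES-Cu library lay within the control range, and the log2 fold change was -0.046 (adjusted p = 0.358, limma). It was called higher after median-of-ratios scaling (0.51) and quantile normalization (0.16). DNAJB7 and DNAJB8, genes best known from testis, lay below the minimum for testing, between 0 and 0.44 TPM in every library.

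The members of the endoplasmic reticulum split. There 4 of 11 rose and 1 fell, against 13.5% and 31.2% of all tested genes. The median log2 fold change of these members was -0.22 on the deposited scale but 0.30 after median-of-ratios scaling and 0.30 after quantile normalization. DNAJB9, also called ERdj4, which recruits the HSP70 protein BiP to the stress sensor IRE1, was at 6.06, 7.15 and 8.10 TPM in control and at 25.6, 25.0 and 25.4 TPM in ES-Cu. All ES-Cu values were close together and above all control values, a ratio of 3.57 (log2 fold change 1.71, SE 0.093, adjusted p = 2.93e-08, limma). DNAJB11, or ERdj3, a soluble BiP partner that binds unfolded clients, rose from 214, 207 and 203 TPM to 311, 313 and 294 TPM. Its groups did not overlap, and from a far higher level than DNAJB9 it had a smaller log2 fold change (0.55, adjusted p = 2.70e-07, limma).

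DNAJC3, known as p58IPK, a BiP cochaperone of the lumen, was at 19.3, 17.8 and 18.1 TPM in control and at 28.5, 25.95 and 25.8 TPM in ES-Cu, without overlap (0.52, adjusted p = 2.14e-05, limma). DNAJC25, a membrane protein, rose from 7.47, 9.21 and 7.98 TPM to 11.4, 11.2 and 10.5 TPM (0.39, adjusted p = 0.00190, limma). Its exons are shared with the readthrough gene DNAJC25-GNG10, which was listed at 0.56, 0 and 0.57 TPM in control and at 0 in ES-Cu, and reads could be split between them.

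Of the remaining members of this compartment, 5 were called lower on the deposited scale and 1 of these, DNAJC16, fell in all 3 scalings. DNAJC10, or ERdj5, a disulfide reductase, was at 15.1, 15.85 and 14.5 TPM in control and at 11.1, 11.6 and 11.6 TPM in ES-Cu. It was lower without overlap on the deposited scale (-0.37, adjusted p = 4.41e-04, limma) but at 0.14 after median-of-ratios scaling. DNAJB14 (-0.58) and DNAJC14 (-0.52) were likewise called lower on that scale and in neither of the others. DNAJC18 was called lower as deposited (-0.35, adjusted p = 0.0137, limma) but higher after quantile normalization (0.29, adjusted p = 0.0348, limma). Its deposited call was lost without control replicate 3 (adjusted p = 0.0595, limma) or ES-Cu replicate 3 (adjusted p = 0.0540, limma). DNAJB12, a membrane partner of DNAJB14 in ER-associated degradation, was at 21.3 ± 2.04 and 21.0 ± 2.50 TPM, and DNAJC1 at 13.2 ± 1.27 and 11.3 ± 1.87 TPM, both with overlapping groups. Both were called higher in the other scalings, at 0.51 and 0.30 after median-of-ratios scaling. DNAJC16, a single-pass membrane protein, fell from 7.84, 8.20 and 8.14 TPM to 3.33, 3.65 and 3.99 TPM (-0.96, adjusted p = 2.51e-06, limma, and -0.49 after median-of-ratios scaling).

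None of the 5 mitochondrial members rose, and 2 of them fell in all 3 scalings, a share near the 31.2% of all tested genes. On the deposited scale all 5 were called lower with groups that did not overlap, where 70.0% of all tested genes were called lower and 70.3% had ES-Cu values wholly under the control values. DNAJC19, which stimulates the HSP70 motor of the inner membrane import channel, was at 40.1, 42.6 and 34.2 TPM in control and at 18.8, 17.5 and 18.0 TPM in ES-Cu. The highest ES-Cu library was well under the lowest control library (-1.06, SE 0.079, adjusted p = 2.94e-07, limma, and -0.52 after median-of-ratios scaling). DNAJC30, a mitochondrial protein linked to ATP synthase, fell from 7.60, 7.50 and 7.23 TPM to 3.04, 2.75 and 3.36 TPM (-1.06, adjusted p = 1.54e-06, limma, and -0.60 after that scaling).

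The other mitochondrial members kept near the median gene on the deposited scale and after median-of-ratios scaling. After quantile normalization DNAJA3 and DNAJC11 were still called lower. DNAJA3, known as Tid1, the class A cochaperone of the matrix, was at 82.5, 76.8 and 82.8 TPM in control and at 57.2, 57.1 and 59.4 TPM in ES-Cu. It was the only class A member that was lower in ES-Cu (-0.47, adjusted p = 3.72e-06, limma). It stood at 0.079 after median-of-ratios scaling and at -0.16 after quantile normalization (adjusted p = 0.0135, limma). DNAJC15, a relative of DNAJC19, went from 2.73, 2.76 and 3.02 TPM to 1.81, 1.67 and 1.84 TPM (-0.47, adjusted p = 0.00229, limma). This was -0.083 after median-of-ratios scaling and 0.15 after quantile normalization, neither of them called. DNAJC11, found with the complex that shapes the cristae, had a mean of 50.6 ± 2.52 TPM in control against 33.7 ± 3.93 TPM in ES-Cu (-0.57). It stood at -0.030 after median-of-ratios scaling and at -0.23 after quantile normalization (adjusted p = 0.0156, limma).

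**Figure D3:**
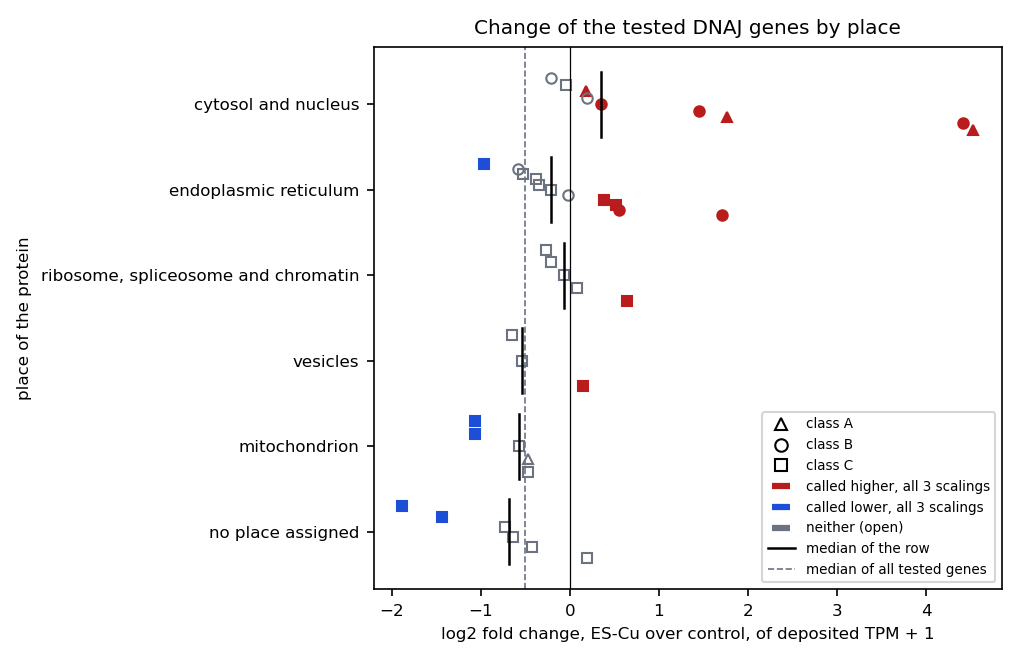
Log2 fold change of deposited TPM + 1, ES-Cu over control (horizontal axis), of the 39 tested DNAJ genes by the place of the protein (rows). Symbols give the class, colours the call in all 3 scalings, black bars the median of a row and the dashed line the median of all tested genes at -0.50. The row of the cytosol and nucleus has its median at 0.36 and reaches 4.53, and all 5 mitochondrial members lie at or under -0.47.

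Of 5 members tied to the ribosome, spliceosome or chromatin, 1 rose and 0 fell. The shares over all tested genes were 13.5% and 31.2%. DNAJC2, also called MPP11, a chaperone at the ribosome exit, was at 51.1, 57.4 and 49.35 TPM in control and at 84.4, 84.75 and 79.5 TPM in ES-Cu. Its groups did not overlap, and its log2 fold change of 0.65 (SE 0.061, adjusted p = 1.67e-06, limma) was the largest in class C. DNAJC8, a spliceosome-associated protein and the highest DNAJ gene in control, was at 396, 380.5 and 392 TPM in control and at 326, 333 and 352 TPM in ES-Cu. DNAJC8 was called lower on the deposited scale (-0.21, adjusted p = 5.17e-04, limma) and after quantile normalization (-0.10, adjusted p = 0.0332, limma). After median-of-ratios scaling it was called higher, at 0.35. DNAJC9, a histone chaperone, stood at 76.6 ± 4.08 TPM in control against 81.4 ± 1.53 TPM in ES-Cu. It was not called as deposited (0.087, adjusted p = 0.126, limma) but was called higher after median-of-ratios scaling (0.64), after quantile normalization (0.38) and, with the 20 highest genes removed, in all 3 scalings. DNAJC21, which acts in the maturation of the large ribosomal subunit, stood at 21.6 ± 1.49 and 20.7 ± 1.65 TPM, and DNAJC17 at 8.46 ± 1.88 and 6.87 ± 1.32 TPM. The groups of these last members overlapped, and DNAJC21 was called higher in the other scalings (0.47 and 0.37).

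Of the 3 tested vesicle members, DNAJC5, the cysteine string protein of secretory vesicles, was at 41.8, 40.04 and 43.3 TPM in control and at 48.0, 44.15 and 47.0 TPM in ES-Cu. The groups were apart by under 1 TPM, and by the rule it rose (0.15, adjusted p = 0.0255, limma). It was the one of the 12 that leaving out a library could undo. Its call was lost without control replicate 1 or 2 or ES-Cu replicate 1 or 3 (adjusted p = 0.0545, 0.0860, 0.0867 and 0.0686, limma). DNAJC6, or auxilin, which uncoats clathrin vesicles, was at 6.25 ± 0.532 and 3.62 ± 0.0721 TPM (-0.65, and -0.19 after median-of-ratios scaling). The endosomal DNAJC13 was at 33.0 ± 0.580 and 22.5 ± 1.79 TPM (-0.54, and 5.9e-05 after that scaling). DNAJC5B was listed at 0 except for 0.18 TPM in ES-Cu replicate 3, and DNAJC5G never passed 0.15 TPM.

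Members with no place assigned held the largest falls, those of DNAJC22 and DNAJC12. DNAJC22, a membrane protein, was at 7.42, 5.11 and 7.02 TPM in control and at 0.84, 0.82 and 1.47 TPM in ES-Cu (-1.88, SE 0.16, adjusted p = 8.42e-07, limma, and -1.49 after median-of-ratios scaling). DNAJC12, a cochaperone of the aromatic amino acid hydroxylases, fell from 4.16, 5.22 and 5.58 TPM to 1.81, 0.60 and 1.38 TPM (-1.43, adjusted p = 3.04e-05, limma, and -1.05 after that scaling). Both were low genes with groups that did not overlap. DNAJC4 (-0.63), DNAJC28 (-0.72) and DNAJC24 (-0.42), the last an enzyme partner in diphthamide synthesis, were called lower on the deposited scale but not in all 3. DNAJC27, which joins a J domain to a small GTPase, was the most scattered member, at 1.91, 2.63 and 4.83 TPM in control and at 4.74, 3.91 and 2.28 TPM in ES-Cu, with overlapping groups (0.20, adjusted p = 0.482, limma). DNAJB13, a sperm tail protein gene, was at or under 0.39 TPM.

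**Figure D4:**
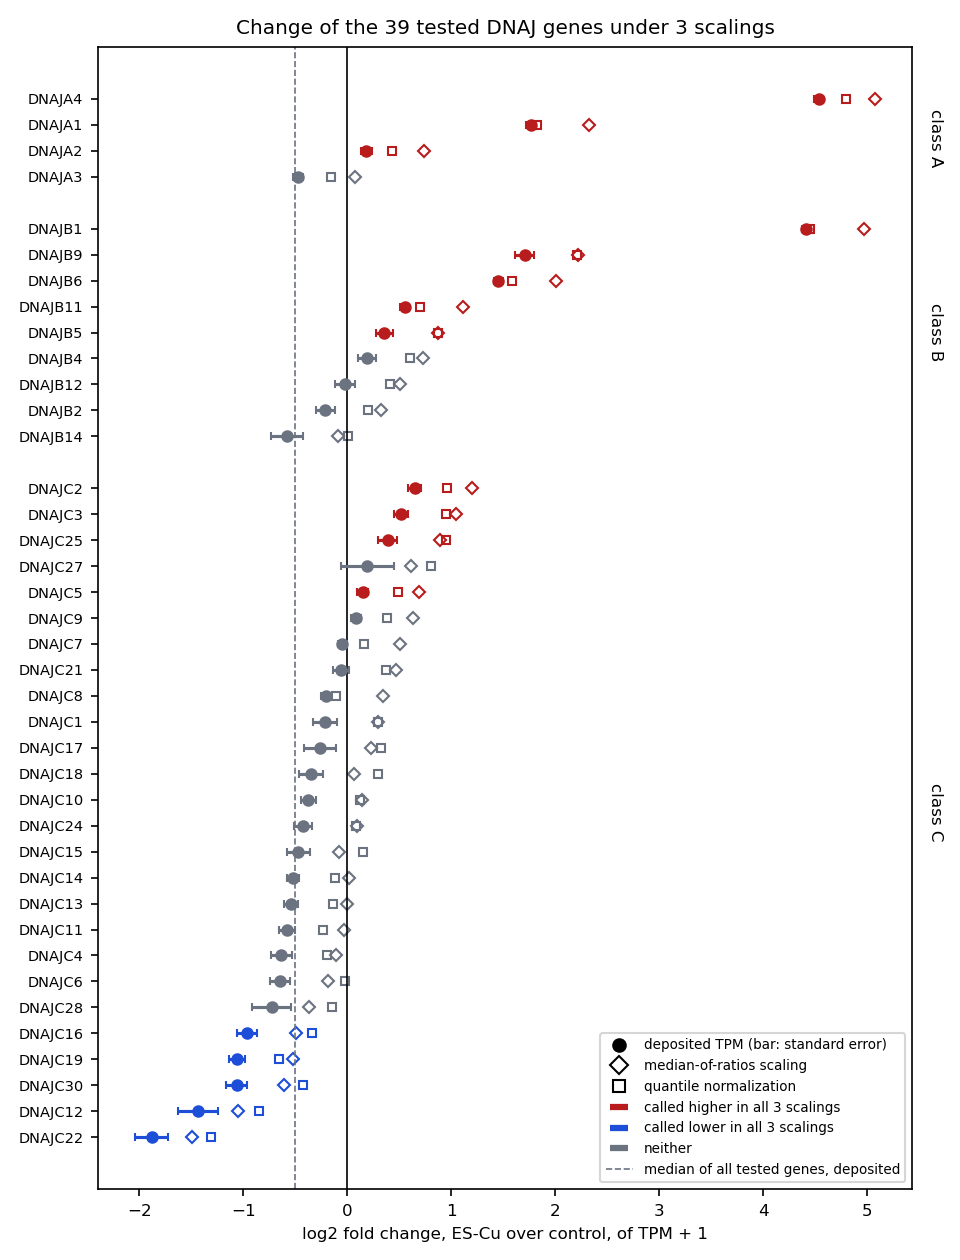
Log2 fold change of TPM + 1, ES-Cu over control (horizontal axis), of the 39 tested DNAJ genes (vertical axis, by class) on the deposited scale (filled circles with standard errors), after median-of-ratios scaling (diamonds) and after quantile normalization (squares). Colours give the call in all 3 scalings, with 12 members higher, 5 lower and 22 neither, and the dashed line marks the median of all tested genes, -0.50.

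The partners of these cochaperones were read from lists of the same fit. Of 10 HSP70 genes 8 rose and 1 fell, against 13.5% and 31.2% of all tested genes. HSPA6, HSPA1A, HSPA1B and HSPA8 had the largest log2 fold changes, 10.22, 5.88, 5.25 and 2.12. HSPA8, the constitutive HSC70 that most cytosolic DNAJ proteins serve, had a mean of 1616 TPM in control, against 7025 TPM with ES-Cu. Named after their values were seen, HSPA5, which encodes BiP in the endoplasmic reticulum, had a log2 fold change of 0.75 and HSPA9, the mitochondrial HSP70, one of 0.67. HSPA9 thus rose while none of the 5 mitochondrial DNAJ members did. The difference between them was not tested.

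Nucleotide exchange factors release ADP from HSP70 and so end the cycle that a J domain starts. Of 13 such genes 7 rose and 1 fell, where 13.5% and 31.2% of all tested genes did. The largest rises were those of HSPH1 (3.74), BAG3 (2.89) and GRPEL2 (0.96), the last a mitochondrial factor. SIL1, an exchange factor of BiP, fell (-0.82). Of 4 J-domain genes with other symbols, which the choice by name leaves out, 1 rose and 0 fell, against the same 13.5% and 31.2%. HSCB was called lower on the deposited scale only (-0.47), and GAK (-0.054) and SEC63 (0.038) did not pass the test there. GAK and SEC63 were called higher after median-of-ratios scaling (0.48 and 0.59) and after quantile normalization (0.38 and 0.35). Of 5 adaptors and regulators STIP1 (0.55) and ST13 (0.34) rose and the ubiquitin ligase STUB1 fell (-0.95). For HSF1 itself the mean was 35.8 TPM in control against 25.9 TPM in ES-Cu. It was lower as deposited (-0.46) and stood at 0.077 under median-of-ratios scaling.

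Some values could be blurred by neighbouring or similar genes, because the strand and the treatment of shared reads are not given in the sources used here. In GENCODE release 29, exons of 15 of the 39 tested members overlap exons on the opposite strand, among them DNAJB1, DNAJA4 and DNAJB9, and 9 overlap another gene on the same strand. Pseudogenes are annotated for 5 tested members, 9 for DNAJC19, 6 for DNAJA1 and 1 each for DNAJB1, DNAJB5 and DNAJC8. How much these change the values was not tested.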

How the data were processed

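RNA of 6 CAL-27 libraries, 3 control and 3 ES-Cu, was sequenced as single-end reads, per the labels' protocols. Values were analysed as TPM, as deposited by the authors, with equal library totals. Per the submitters' processing notes, the tools included HISAT and Bowtie2 (no version given). The same notes list a mouse build, GRCm38.p6, although the genes are human. The quantification tool was not given in the sources used here. Depth is unknown, so no counting interval was computed.

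After a filter at a mean of 1 TPM, log2(TPM + 1) values were fitted by limma, version 3.58.1 under R version 4.3.3 (mean-variance trend, two-sided, Benjamini-Hochberg over all 11927 genes, threshold 0.05), without a replicate block. The fit was repeated after median-of-ratios scaling and quantile normalization. On simulated data of 11926 genes for ES-Cu against control, all 50 genes with a true log2 fold change of 1 and all 50 with -1 were called. So were 48 of 50 at 0.5, 45 of 50 at -0.5 and 7 of 11726 with none. A shift of most genes was not simulated.

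The members and lists were chosen with earlier results of these data known. Values in every library were given by rule for members called in all 3 scalings with an absolute log2 fold change of at least 1 and a group mean of at least 5 TPM, and for 17 members fixed by name. DNAJC2, DNAJC8, DNAJC12, DNAJC16, DNAJC25 and DNAJC27 were added after their values were seen. Some genes of the partner lists are not reported here. Places of the proteins are textbook knowledge. Promoters came from RefSeq (GRCh38.p14) and gene overlaps from GENCODE release 29. The alternatives tried were the other scalings, a pseudocount of 0.1 or 0.5, a filter at 5 TPM or none, the 20 highest genes left out, limma with no trend, the replicate number as a block, and each library omitted in turn.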

Additional observations from a re-analysis of the deposited data

How the results depend on the processing

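The count of 12 members called higher became 20 after median-of-ratios scaling and 20 after quantile normalization, and the count of 18 called lower became 5 and 8. Over all 11927 tested genes, 1628 higher and 8351 lower as deposited became 4532 and 4266 after median-of-ratios scaling. In the other alternatives run, both counts of members stayed within 1.5 times, with 11 to 12 and 18 to 19 when 1 library was left out. Of the members called in all 3 scalings, 11 to 12 were higher and 5 lower without 1 library. With a filter of 5 TPM 3 were lower, because DNAJC12 and DNAJC22 were no longer tested. The class medians were 0.97, 0.36 and -0.40 in classes A, B and C. They were 1.53, 0.87 and 0.082 after median-of-ratios scaling, 1.13, 0.70 and 0.10 after quantile normalization, and 1.13, 0.51 and -0.26 with the 20 highest genes removed, and class C was at -0.26 with the filter of 5 TPM. Leaving out 1 library gave 0.94 to 1.01, 0.31 to 0.42 and -0.43 to -0.38.

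Signs turned for 13 members after median-of-ratios scaling: DNAJA3 (0.079), DNAJB2 (0.33), DNAJB12 (0.51), DNAJC1 (0.30), DNAJC7 (0.51), DNAJC8 (0.35), DNAJC10 (0.14), DNAJC13 (5.9e-05), DNAJC14 (0.017), DNAJC17 (0.23), DNAJC18 (0.069), DNAJC21 (0.47) and DNAJC24 (0.094). Quantile normalization turned 11, namely DNAJB2 (0.20), DNAJB12 (0.42), DNAJB14 (0.010), DNAJC1 (0.30), DNAJC7 (0.16), DNAJC10 (0.12), DNAJC15 (0.15), DNAJC17 (0.32), DNAJC18 (0.29), DNAJC21 (0.37) and DNAJC24 (0.083). Removal of the 20 highest genes turned DNAJB12 (0.13), DNAJC7 (0.11) and DNAJC21 (0.094). When 1 library was left out, DNAJB12 ranged from -0.075 to 0.074 (0.049 without control replicate 3 and 0.074 without ES-Cu replicate 2), DNAJC21 from -0.11 to 0.0056 (without ES-Cu replicate 3) and DNAJC27 from -0.025 (without control replicate 1) to 0.48. Median-of-ratios scaling divided each library by the median of its gene ratios, 1.21 to 1.22 in control and 0.806 to 0.845 in ES-Cu. It thus centred the median gene by construction, from -0.50 to 0.0037. The cause of the shift on the deposited scale was not tested.

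With the replicate block 13 members were called higher and 19 lower, DNAJB4 and DNAJC17 being added. No pairing by number was seen. Deviations of same-numbered libraries from their group means correlated across genes at 0.021, -0.034 and 0.011, against -0.058 to 0.043 for the other pairs. Such values cannot show whether same-numbered libraries were handled together, which the labels do not say.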
